A study of Mus musculus with 6 samples.

Results

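Spinal cord was set against dorsal root ganglion (DRG) from the same side and the same time, day 5 after injury of the sciatic nerve, each measured on 1 Illumina MouseRef-8 bead array, to which RNA pooled from 6 animals was applied. All tissue came from adult female C57Bl6 mice (C57BL6/J in the study's methods) with no transgene or knockout named in the labels. The sciatic nerve of 1 side was transected at mid-thigh, per the study's methods, and the lumbar DRG on that side were collected, while the level of spinal cord taken is not given in the sources used here. A control DRG array, from tissue labelled normal and called sham-operated in the study, is given beside the day 5 DRG, and 3 sciatic nerve arrays complete the series of 6. Members of the comparison were the probes with a gene symbol that were detected (detection p under 0.05 against the negative controls of the array) in spinal cord, in DRG or in both. These were 14155 of 25697 probes. Each gene was represented by its brightest probe, and by that probe 10388 of 16593 genes were detected, against 10422 by any probe. By 1 array or the other, 12930 named probes were detected in spinal cord and 12854 in day 5 DRG. At the edge of this rule, 23 named probes had a lower detection p of 0.0489 and were in, and 33 had 0.0501 and were out.

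Spinal cord is central nervous tissue, in which oligodendrocytes wrap axons in myelin, astrocytes take up transmitter and potassium, and local inhibitory neurons use GABA and glycine. The DRG lies outside the cord and holds the cell bodies of sensory neurons, which have no dendrites and are enclosed by satellite glia, with Schwann cells along their axons and no blood barrier as tight as that of the cord. Cutting the sciatic nerve severs the peripheral axons of those sensory neurons, which then switch on a set of genes tied to axon regrowth, and it severs the axons of motor neurons, whose cell bodies lie in the ventral horn of the cord.

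Signals are bead intensities scaled to a common median and carry no unit. Scaling factors were 1.05 for spinal cord and 0.950 for day 5 DRG, within a range of 0.950 to 1.07 over the 6 arrays. The share of probes detected was 50.9 to 54.5%, and the median bead standard error 5.89 to 6.53% of the signal. A gene is called higher or lower where the brighter array detected it and the signals differed at least 2-fold. Where it was undetected on the dimmer side, its signal was raised to the lowest detected signal of that array (119 in both) and the fold is written as "at least". A gene that only 1 array detected can be called only in the direction of that array. Intervals are 95% intervals from the spread between beads of 1 array, so they hold no variation between animals, pools or hybridisations. Nor do they allow for background. Where the dimmer signal was detected but near 119, as for Cldn10, Mobp, Pdyn, Asic3 and Slc17a7, the fold is in effect a lower bound too. With 1 array a side there was no replicate check, no test was possible and no p-value is given. All 6 arrays lay on 1 BeadChip, and position on the chip and tissue cannot be told apart.

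Between spinal cord and day 5 DRG, 632 of 10388 genes were at least 2-fold higher in spinal cord (6.08%) and 780 were at least 2-fold lower (7.51%). These shares are the background for every list of genes below. The other 8976 genes (86.4%) lay within 2-fold, and the median log2 difference over all genes detected was -0.03. Differences of 10-fold or more were rare, with 43 genes higher (0.414%) and 32 lower (0.308%). Both arrays detected 8707 genes, spinal cord alone 832 and DRG alone 849, and 107 of the higher and 86 of the lower calls are lower bounds. Without scaling the split was 517 higher and 995 lower, and with quantile normalization 699 and 698. Just inside the 2-fold line lay Faah, the enzyme that breaks down anandamide, with 793 in spinal cord against 396 in DRG (2.0008-fold, 1.73 to 2.31), and just outside it Gpt, with 322 against 161 (1.9951-fold). Among lower genes the edge fell between Gprc5c, with 127 in spinal cord against 254 in DRG (2.0003-fold), and Coro2a, with 152 against 304 (1.9986-fold).

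**Figure D1:**
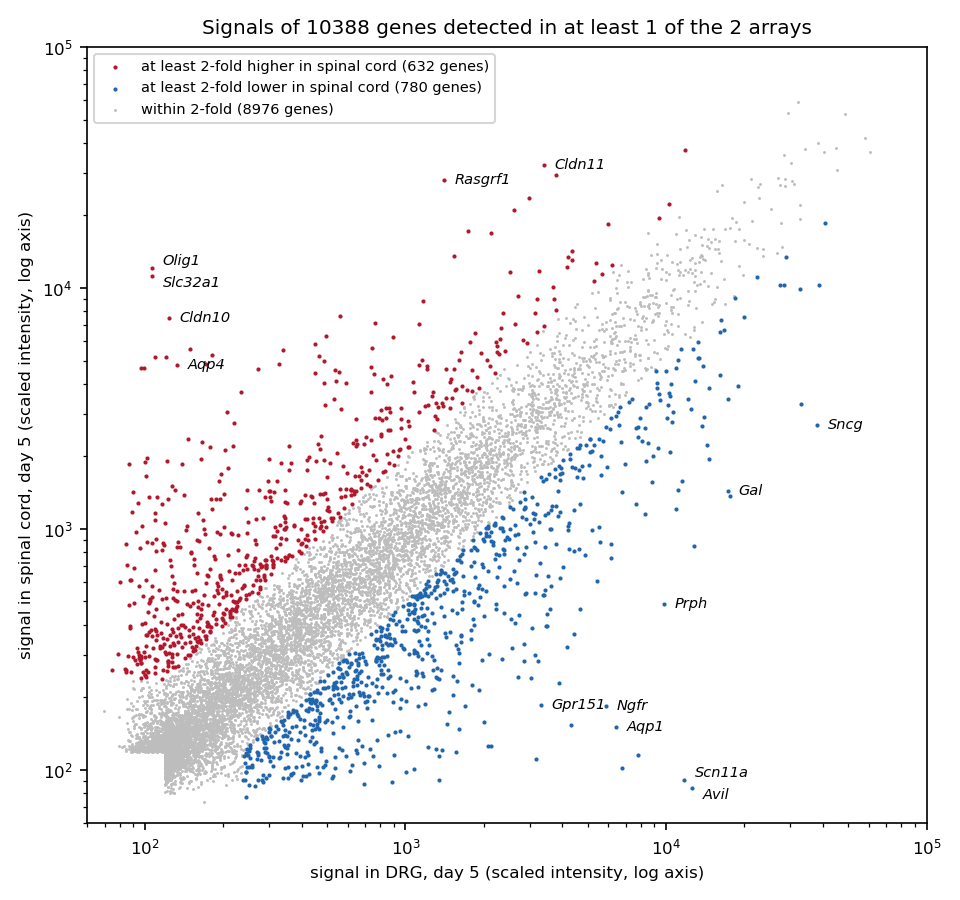
Scaled signal in spinal cord (vertical, log axis) against day 5 DRG (horizontal, log axis) for the 10388 genes detected in at least 1 of the 2 arrays, 1 point a gene. Red marks the 632 genes at least 2-fold higher in spinal cord, blue the 780 at least 2-fold lower and grey the 8976 within 2-fold, with undetected signals drawn as measured, so that Olig1 and Avil sit at opposite corners.

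The tissues carried the defining genes of their labels. Of the markers written for spinal cord, Mog, Mobp, Olig1, Gfap, Aqp4, Slc32a1, Gad1 and Chat were detected there and at least 4-fold higher than in day 5 DRG, and Slc6a5, the neuronal glycine transporter, was detected at 144 in spinal cord and not detected in DRG. Of those written for DRG, Prph, Pou4f1, Avil, Scn10a, Trpv1, Mrgprd and Pmp2 were detected in DRG and at least 2-fold lower in spinal cord, and 4 of these 7 were not detected in spinal cord. RNA of other tissues was present too. Of 14 detected skeletal muscle genes, 6 were lower in spinal cord and 0 higher, with summed signals of 10419 in spinal cord and 12860 in DRG, and their part in any result was not tested. In these whole tissues, fewer cells of a type and less RNA per cell cannot be told apart.

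Oligodendrocyte genes made up the most one-sided list. Of 18 detected members, 15 were higher in spinal cord and 0 lower, with a median log2 difference of 2.85 against -0.03 over all genes. Olig1, a transcription factor of the oligodendrocyte lineage, had 12068 in spinal cord and 106 in DRG, where it was not detected, a difference of at least 101-fold. Mobp, a structural protein of central myelin, had 5172 in spinal cord against 120 in DRG (43.1-fold, 37.3 to 49.7). Mog, the myelin glycoprotein on the outer surface of the central sheath, had 4637 in spinal cord and was not detected in DRG (at least 39.0-fold). Opalin and Klk6, also made by oligodendrocytes, were not detected in DRG and were higher by at least 15.6-fold and at least 15.9-fold. Some members of this list had a clear signal in DRG as well. Cldn11, the tight junction protein of oligodendrocyte myelin, had 32309 in spinal cord against 3387 in DRG (9.54-fold, 7.97 to 11.4), Bcas1 had 29518 against 3780 and the iron carrier Trf 13565 against 1529. Olig2 and Sox8, transcription factors of the same lineage, were detected in spinal cord alone but lay close to background, at 141 and 203.

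The promoter of Mobp is shown because its gene had the largest difference among myelin genes that both arrays detected. It spans chr9:120149492-120149791 on the plus strand of GRCm38.p6, from 250 bases before to 50 after the start in RefSeq, and capitals mark matches on either strand to TATAAA (the TATA box), GGGCGG (the GC box), CCAAT (the CCAAT box) or ACAAAG (a core recognised by SOX factors).
Mobp: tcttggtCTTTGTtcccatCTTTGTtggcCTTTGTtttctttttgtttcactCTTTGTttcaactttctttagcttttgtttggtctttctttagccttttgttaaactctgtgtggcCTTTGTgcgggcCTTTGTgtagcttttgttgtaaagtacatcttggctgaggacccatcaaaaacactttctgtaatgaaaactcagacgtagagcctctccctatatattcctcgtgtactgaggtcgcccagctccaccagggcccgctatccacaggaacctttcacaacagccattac
All 6 matches are to ACAAAG, read on the opposite strand, and none overlap. Shares of motifs are per gene, and a gene counts where any of its promoters holds a match. For ACAAAG the share was 18.9% of the 503 higher genes with a promoter and 20.4% of the 608 lower genes. It was 16.5% of the 7262 genes within 2-fold, against 21.0% of all 27025 genes with a promoter in the table. Among 32851 promoters in that table, only that of Mobp held as many as 6. These letters are a description and show no binding.

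Myelin genes that oligodendrocytes and Schwann cells share were divided, with 5 of 13 detected members higher in spinal cord, 1 lower and a median log2 difference of 0.86. Mag, an adhesion protein of the inner myelin face, had 17156 in spinal cord against 1733 in DRG (9.90-fold, 8.77 to 11.2). Cnp, an enzyme of myelin cytoplasm, had 2876 against 789 (3.65-fold), and the galactolipid enzymes Ugt8a and Fa2h had 5428 against 2242 and 5894 against 2923, and the call of Fa2h was lost without scaling. Mbp, which compacts both kinds of myelin, had 53303 in spinal cord against 29337 in DRG, which is within 2-fold (1.82-fold). Cd9, a tetraspanin, was the lone member that was lower, with 2226 in spinal cord against 14302 in DRG (6.42-fold, 5.37 to 7.69).

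Schwann cell and peripheral myelin genes ran the other way, with 0 of 19 detected members higher in spinal cord, 15 lower and a median log2 difference of -1.50. Ngfr, the low-affinity neurotrophin receptor of Schwann cells and sensory neurons, had 184 in spinal cord against 5862 in DRG (31.8-fold, 27.0 to 37.5). Gfra3, the artemin receptor, was not detected in spinal cord and had 1003 in DRG (at least 8.42-fold). Dhh, the hedgehog ligand of Schwann cells, had 422 against 2544 (6.03-fold) and Pmp2, a fatty acid binding protein of peripheral myelin, 465 against 2231 (4.80-fold). Smaller differences marked Pmp22, a structural protein of peripheral myelin, with 7591 in spinal cord against 19915 in DRG (2.62-fold, 2.19 to 3.14), and Egr2, the transcription factor of myelinating Schwann cells, with 321 against 777. Day 5 and control DRG gave like values for most of this list, and the median log2 difference of day 5 from control DRG was 0.00.

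Astrocyte genes were higher in spinal cord for 18 of 24 detected members and lower for 0, with a median log2 difference of 2.25. Cldn10, a claudin listed here with astrocytes, had 7485 in spinal cord against 123 in DRG (60.7-fold, 53.0 to 69.5). That was the largest difference of any gene that both arrays detected, though its DRG signal was close to the lowest detected signal. Aqp4, the water channel of astrocyte endfeet, had 4772 against 133 (35.9-fold), and Ntsr2, a neurotensin receptor, 4838 against 172 (28.2-fold). The glutamate transporter Slc1a2 and the filament protein Gfap were not detected in DRG and had 1967 and 1652 in spinal cord (at least 16.5-fold and at least 13.9-fold). Gja1, the gap junction protein that satellite glia also use, had 16845 in spinal cord against 2137 in DRG (7.88-fold). The zinc transporter Slc39a12, outside the list, was higher by at least 43.5-fold, with 5179 in spinal cord and no detection in DRG. Slc25a18, a mitochondrial glutamate carrier, had 4613 against 271 (17.0-fold).

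Of 12 detected genes of oligodendrocyte precursors and the perineuronal matrix, 5 were higher in spinal cord and 0 lower, led by the receptor Gpr17 (612, not detected in DRG), the proteoglycan Cspg5 (505 against 130) and Hapln4 (2066 against 546), a link protein of perineuronal nets.

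**Figure D2:**
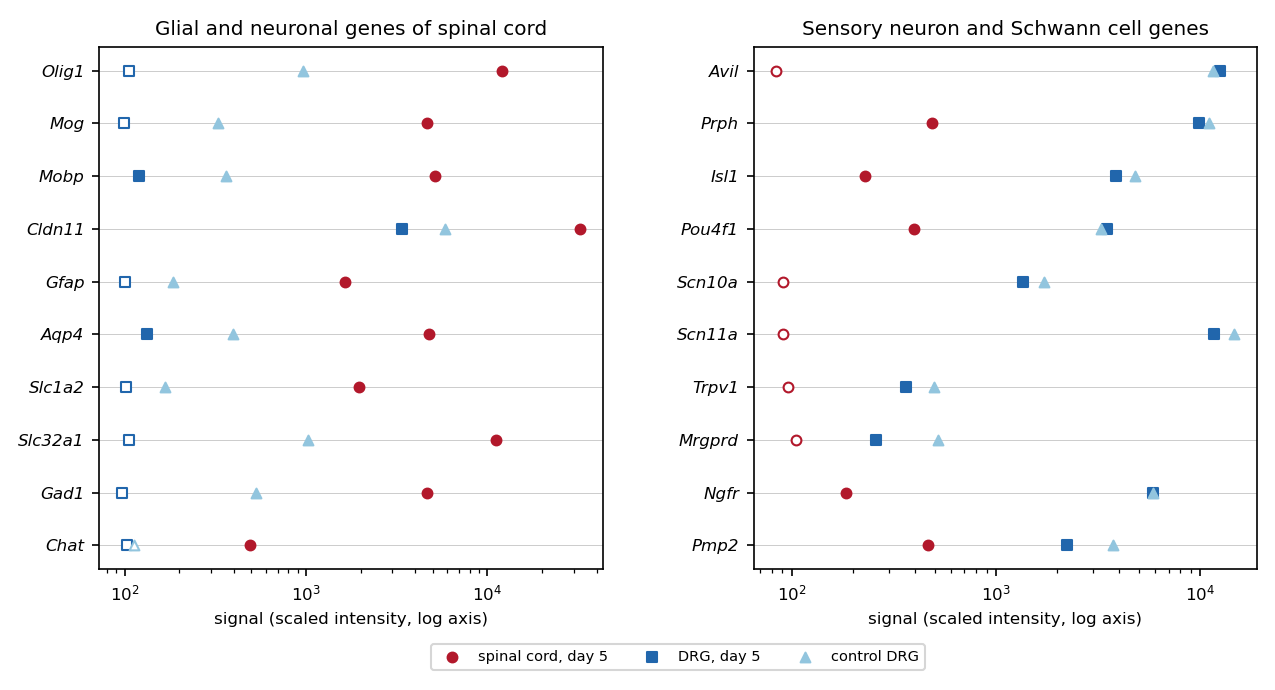
Scaled signal (log axis) of 10 genes of spinal cord glia and neurons, at left, and 10 genes of sensory neurons and Schwann cells, at right, in spinal cord at day 5 (red circles), DRG at day 5 (dark squares) and control DRG (light triangles), 1 array each, open where not detected. In the left panel control DRG lies between spinal cord and day 5 DRG for every gene that control DRG detected, most visibly Olig1 and Slc32a1. In the right panel the 2 DRG arrays lie close together and far from spinal cord.

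Oligodendrocyte and astrocyte genes had lower signals in day 5 DRG than in control DRG by the median of each list, and the median difference of each list from spinal cord was smaller against the control array. The median log2 difference of day 5 from control DRG was -0.37 over the oligodendrocyte list and -0.39 over the astrocyte list. That of the inhibitory neuron list, 0.03, is merely the value that a gene takes when neither DRG array detected it. Among its called members, Slc32a1 and Gad1 were lower in day 5 than in control DRG by at least 8.61-fold and at least 4.47-fold. Slc6a9 and Calb2 were both 2.38-fold lower, and Npy was 15.7-fold higher. Olig1 had 12068 in spinal cord, was not detected in day 5 DRG, and had 966 in control DRG. Slc32a1, the vesicular transporter that loads GABA and glycine, had 11197 in spinal cord, no detection in day 5 DRG (106) and 1025 in control DRG. Over the oligodendrocyte list the summed signal was 116299 in spinal cord, 12520 in day 5 DRG and 19454 in control DRG, and over the astrocyte list 75644, 9953 and 14916. Of 21 oligodendrocyte genes on the array, 18 were detected in spinal cord, 10 in day 5 DRG and 18 in control DRG. The part of these transcripts in the difference between the DRG arrays was not tested, and the folds given here are those against day 5 DRG.

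The inhibitory neuron list held some of the largest differences, although 4 of 14 detected members were higher, 1 lower and the rest within 2-fold. Slc32a1 was higher in spinal cord by at least 94.1-fold. Gad1, the enzyme that makes GABA, had 4660 in spinal cord and was not detected in DRG (at least 39.1-fold). Slc6a9, a glycine transporter made mainly by glia, had 5250 against 181 (29.1-fold). The calcium-binding protein Calb2, listed here with inhibitory neurons, had 5857 against 449 (13.04-fold). Control DRG had 532 for Gad1, 429 for Slc6a9 and 1070 for Calb2, and the differences from it were 8.77-fold, 12.2-fold and 5.48-fold. Npy, a peptide of dorsal horn inhibitory neurons, was the lone lower member, with 1131 in spinal cord against 3855 in day 5 DRG, and control DRG had 246. Transcription factors that set inhibitory fate in the embryo, among them Lhx1, Lhx5 and Tal1, were within 2-fold and near background, at 126 to 166 in spinal cord.

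The promoter of Gad1 is shown as that of a neuronal gene detected in spinal cord and not in day 5 DRG, though control DRG had 532. It lies at chr2:70561879-70562178 on the plus strand of GRCm38.p6, with the same marks.
Gad1: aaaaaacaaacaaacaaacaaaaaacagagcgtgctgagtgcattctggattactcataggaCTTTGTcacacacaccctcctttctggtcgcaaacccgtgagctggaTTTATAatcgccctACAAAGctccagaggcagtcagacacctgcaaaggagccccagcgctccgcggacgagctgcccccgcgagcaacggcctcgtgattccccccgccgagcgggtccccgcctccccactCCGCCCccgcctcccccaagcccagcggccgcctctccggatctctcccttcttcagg
It held 1 match to TATAAA, 1 to GGGCGG and 2 to ACAAAG. Matches to TATAAA were found for 11.1% of higher genes with a promoter, 15.0% of lower genes and 9.72% of genes within 2-fold, against 15.7% of genes in the whole table.

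Cholinergic genes, which mark motor neurons and the partition cells of the cord, were higher in spinal cord for 5 of 14 detected members of that list and lower for 3. Slc18a3, Chat and Slc5a7, which load acetylcholine into vesicles, make it and take up its precursor choline, had 600, 491 and 515 in spinal cord, and of these only Slc5a7 was detected in DRG (128). Chodl, a surface protein of fast motor neurons, had 879 in spinal cord against 134 in DRG (6.55-fold, 5.60 to 7.66). The members that were lower, Isl1, Isl2 and Ret, are made by sensory neurons as well as motor neurons. Isl1 had 229 in spinal cord against 3880 in DRG (16.9-fold, 14.8 to 19.4), Isl2 138 against 1021 and Ret 534 against 3387.

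Dorsal horn excitatory genes split evenly, with 5 of 23 detected members higher and 5 lower. Sst, the peptide somatostatin, had 6324 in spinal cord against 494 in DRG (12.8-fold), Nmu, neuromedin U, 1508 against 127 (11.8-fold), and Cck 1028 with no detection in DRG (at least 8.64-fold). Against control DRG these differences were 4.39-fold for Sst, 4.76-fold for Nmu and 5.19-fold for Cck. Among the lower members, Slc17a7, the vesicular glutamate transporter of many primary afferents, had 120 in spinal cord against 1382 in DRG (11.5-fold), and Tlx3, a transcription factor of dorsal horn and sensory neurons, 221 against 1122 (5.07-fold). The postsynaptic list, in which 8 of 21 detected members were higher and 1 lower, was led by Cbln1, a synapse organiser (2208 against 217, 10.2-fold), and the kinase subunit Camk2b (5627 against 746, 7.54-fold). Nptx2, a pentraxin that gathers glutamate receptors, was the member that was lower, with 541 in spinal cord against 3135 in DRG.

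Some of the largest differences were in genes outside the lists. Rasgrf1, a calcium-activated exchange factor for Ras, had 27951 in spinal cord against 1406 in DRG (19.9-fold, 17.3 to 22.8). Hap1, the partner of huntingtin, had 5503 against 338 (16.3-fold), and Psd2, an exchange factor for small GTPases, 2352 against 146 (16.1-fold). B3gat1, the enzyme that makes the HNK-1 sugar epitope, had 3712 against 233 (15.9-fold). Prr18 had 5576 against 149 (37.4-fold). Against control DRG the differences were smaller, at 7.40-fold for Rasgrf1 (3778 in control DRG), 4.82-fold for Hap1, 8.92-fold for Psd2, 5.56-fold for B3gat1 and 15.6-fold for Prr18.

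Sensory neuron genes held the largest differences in the other direction. In the structural and signalling list, 14 of 20 detected members were lower in spinal cord and 0 higher, with a median log2 difference of -1.93. Avil, advillin, an actin-binding protein of sensory neurons, was not detected in spinal cord (84.1) and had 12535 in DRG, a difference of at least 105-fold. Fxyd2, a regulator of the sodium pump, and Tmem45b were likewise detected in DRG alone (at least 65.5-fold and at least 56.9-fold lower in spinal cord). Prph, peripherin, the filament protein of neurons that send axons outside the cord, had 488 in spinal cord against 9826 in DRG (20.1-fold, 17.4 to 23.2). Sncg, gamma-synuclein, had 2690 against 38088 (14.2-fold). Control DRG gave 11528 for Avil, 11011 for Prph and 36820 for Sncg, near the day 5 values, and against spinal cord the structural list had a median log2 difference of -1.86 with the control array.

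The promoters of Prph and Avil are set side by side because both genes were at least 20-fold lower in spinal cord. They lie at chr15:99054924-99055223 and chr10:127000459-127000758, both on the plus strand of GRCm38.p6, with the same marks.
Prph: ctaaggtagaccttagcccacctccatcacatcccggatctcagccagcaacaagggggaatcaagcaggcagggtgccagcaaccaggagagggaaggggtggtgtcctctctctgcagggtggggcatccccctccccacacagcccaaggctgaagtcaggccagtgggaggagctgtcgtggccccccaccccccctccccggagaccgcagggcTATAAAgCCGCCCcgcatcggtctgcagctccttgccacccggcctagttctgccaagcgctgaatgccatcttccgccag
Avil: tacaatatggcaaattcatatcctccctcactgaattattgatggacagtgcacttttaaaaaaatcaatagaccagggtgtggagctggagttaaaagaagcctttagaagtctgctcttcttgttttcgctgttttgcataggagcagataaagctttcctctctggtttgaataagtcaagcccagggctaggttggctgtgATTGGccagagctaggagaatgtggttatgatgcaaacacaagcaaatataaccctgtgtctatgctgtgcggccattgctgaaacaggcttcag
That of Prph held TATAAA 31 bases before the start and GGGCGG on the opposite strand. That of Avil held 1 match to CCAAT on the opposite strand and none of the other 3 motifs. CCAAT was found for 41.7% of higher genes with a promoter and 40.6% of lower genes, and GGGCGG for 66.6% and 65.0%. The shares were 43.7% and 66.1% of genes within 2-fold, and 41.1% and 38.2% of genes in the whole table. For GGGCGG, both called shares thus lay near that of genes within 2-fold.

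Receptors and channels of sensory transduction were lower in spinal cord for 17 of 23 detected members, with a median log2 difference of -1.61. Asic3, the acid-sensing channel, had 119 in spinal cord against 1563 in DRG (13.1-fold, 11.4 to 15.1), and the receptor Mrgpra2b 126 against 2082 (16.5-fold). Lpar3, a receptor of lysophosphatidic acid, P2rx3, the ATP-gated channel of nociceptors, and Trpv1, the capsaicin receptor, were detected in DRG alone, at 1074, 753 and 364. Mechanosensory Piezo2 had 122 in spinal cord against 729 in DRG (5.97-fold). Outside the list, Pirt, a regulator of TRP channels, was lower by at least 26.6-fold, and Acpp, the acid phosphatase of nonpeptidergic nociceptors, had 154 against 4323 (28.1-fold). Aqp1, a water channel, had 151 in spinal cord against 6448 in DRG (42.8-fold, 36.6 to 49.9), the largest difference among lower genes that both arrays detected. Gcnt2, a sugar transferase (848 against 12784), and Tmem79 (125 against 2122) followed at 15.1-fold and 16.9-fold, and Amigo3, an adhesion protein, was lower by at least 11.3-fold.

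Sensory neuron transcription factors were fewer, with 5 of 14 detected members lower in spinal cord and 1 higher. Pou4f1, which with Isl1 sets sensory neuron identity, had 396 in spinal cord against 3492 in DRG (8.83-fold, 7.44 to 10.48), and Klf7 had 1018 against 5509. Bcl11b, a zinc finger factor also made in the cord, was the exception, with 404 in spinal cord against 187 in DRG (2.16-fold, 1.82 to 2.57), and control DRG had 310. Its call was lost without scaling and with the control array.

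Hox genes, which set position along the body axis in the embryo and stay on in adult cord, were higher in spinal cord for 9 of 23 detected members and lower for 0, with a median log2 difference of 0.82. Hoxd10, of lumbar levels, had 4485 in spinal cord against 554 in DRG (8.10-fold, 7.12 to 9.22), and Hoxc10 1445 against 346 (4.18-fold). Hoxb6 had 954 against 216 (4.41-fold), Hoxa5 1924 against 487 and Hoxb7 3167 against 843. Hoxc9 and Hoxd8 were bright in both tissues, at 1203 against 947 and 1514 against 991, and lay within 2-fold. Without the floor and filter the median over all measured Hox genes came to 0.31. Of neural tube transcription factors 6 of 17 detected members were higher and 0 lower, among them Sox21 (814, not detected in DRG) and Zic1 (912 against 349), a factor of dorsal cord. All 17 were detected in spinal cord but only 7 in day 5 DRG, so the rest could not be called lower. The median log2 difference of this list was 0.69, and it ran from 0.26 to 1.46 over all settings.

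**Figure D3:**
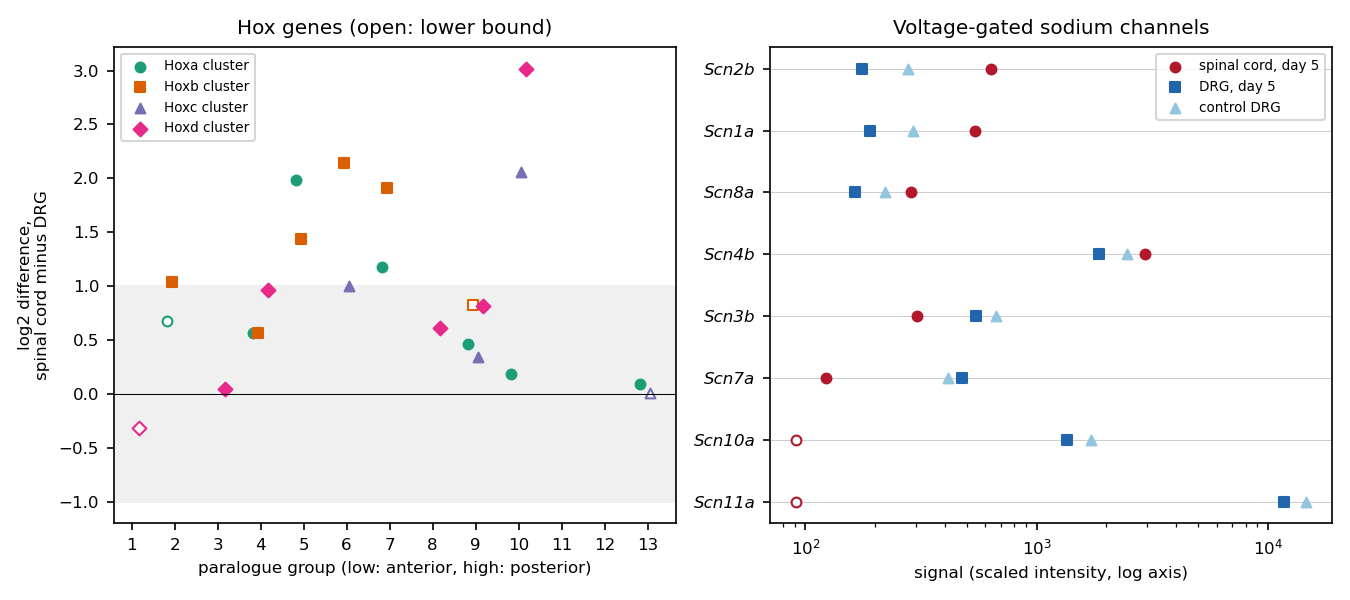
Left, log2 difference of spinal cord minus day 5 DRG for the 23 detected Hox genes by paralogue group (horizontal, 1 to 13), coloured by cluster, open where a lower bound, with the grey band marking differences within 2-fold. Right, scaled signal (log axis) of 8 sodium channel genes in spinal cord, day 5 DRG and control DRG, open where not detected, in which Scn10a and Scn11a were detected in the DRG arrays but not in spinal cord.

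Voltage-gated sodium channels were split by tissue. Scn11a and Scn10a, the tetrodotoxin-resistant channels of nociceptors, were not detected in spinal cord (91.0 and 90.7) and had 11738 and 1350 in day 5 DRG (at least 98.6-fold and at least 11.3-fold). Control DRG had 14673 and 1719. Scn7a, a sodium-sensing channel of glia and neurons, had 123 in spinal cord against 473 in DRG (3.84-fold). In the other direction Scn2b, an accessory subunit, had 637 in spinal cord against 175 in DRG (3.64-fold, 2.97 to 4.47) and Scn1a 543 against 190 (2.86-fold), and Scn8a, the channel of nodes of Ranvier, had 285 against 165 and lay within 2-fold.

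Other channels showed differences of both signs. Of 31 detected potassium and HCN channel genes, 5 were higher and 4 lower, and of 15 calcium channel genes 4 were higher and 1 lower. Hcn2, a pacemaker channel, had 4072 in spinal cord against 1073 in DRG (3.80-fold), and Kcng4, a silent potassium subunit, 958 against 213 (4.49-fold). Cacna2d1, the gabapentin-binding calcium channel subunit, was lower, with 290 in spinal cord against 1156 in DRG (3.99-fold, 3.41 to 4.67), and control DRG had 465.

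Receptors for GABA and glycine were higher in spinal cord for 5 of 10 detected members and lower for 0. All 10 were detected in spinal cord but only 5 in day 5 DRG, so the rest could not be called lower. The median log2 difference was 0.99, and it ran from 0.24 to 1.29 over all settings. Glra2, a glycine receptor subunit, had 1089 and was not detected in DRG (at least 9.15-fold), and Gabrb1 had 555 against 152 (3.65-fold). Of 10 detected glutamate receptor genes, 3 were higher in spinal cord, 1 was lower and 6 lay within 2-fold. The AMPA subunit Gria2 had 1334 in spinal cord against 187 in DRG (7.12-fold), Gria1 had 433 with no detection in DRG, and the NMDA subunit Grin3b had 255 with no detection in DRG (at least 2.14-fold), a call lost without scaling and at detection p under 0.01. The kainate subunit Grik1 had 389 in spinal cord against 3056 in DRG (7.85-fold, 6.64 to 9.28). Of 25 detected synaptic vesicle and release genes, 6 were higher and 2 lower. Sv2a, a vesicle protein, had 5210 in spinal cord against 466 in DRG (11.2-fold), while the synaptotagmins Syt9 and Syt4 had 302 against 1028 and 4505 against 9970. The call of Syt4 was lost with quantile normalization and with neqc, a background-subtracting method.

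Neuropeptides went both ways, with 8 of 22 detected members higher in spinal cord and 10 lower. Pdyn, the dynorphin precursor, had 1918 in spinal cord against 121 in DRG (15.8-fold, 13.1 to 19.1), and with Sst, Nmu and Cck it led the higher members. Control DRG had 369 for Pdyn (5.19-fold). Lower members included peptides that afferents release in the dorsal horn. Tac1, the substance P precursor, had 865 in spinal cord against 3777 in DRG (4.37-fold, 3.72 to 5.13), and Calcb, a calcitonin gene-related peptide, 188 against 1189 (6.32-fold). Nppb, the itch peptide, was not detected in spinal cord and had 691 in DRG, and Nmb, neuromedin B, had 134 against 778. Gal, galanin, had 1444 in spinal cord against 17265 in day 5 DRG (11.96-fold, 9.97 to 14.3), and control DRG had 1289. For Tac1, Calcb, Nppb and Nmb the 2 DRG arrays differed by less than 2-fold, while for Gal, Npy and Nts they differed more than 4-fold.

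Regeneration-associated genes, those that axotomised sensory neurons switch on, were lower in spinal cord for 23 of 31 detected members, with a median log2 difference of -1.77. The list was written from knowledge of injured DRG neurons, and earlier results of these arrays were known when it was written. Gpr151, an orphan receptor, had 186 in spinal cord against 3302 in day 5 DRG (17.8-fold, 14.8 to 21.3), and control DRG had 129. Atf3, a transcription factor of injury, had 241 against 3032 (12.6-fold, 10.9 to 14.4), with 163 in control DRG. Sprr1a, which promotes neurite growth, had 214 against 1919 (8.95-fold) and was not detected in control DRG. In each of these genes spinal cord lay far below day 5 DRG and nearer to control DRG. It was above control DRG by 1.44-fold for Gpr151, 1.48-fold for Atf3 and at least 1.84-fold for Sprr1a. The series holds no array of uninjured spinal cord, so whether these genes changed in the cord after injury was not tested.

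Against control DRG the list had a median log2 difference of 0.16 over the members detected in the day 5 comparison, and that of day 5 DRG from control DRG was 1.71. Other members had a clear signal in control DRG. Gap43, the growth cone protein, had 2591 in spinal cord against 6078 in day 5 DRG (2.35-fold, 1.92 to 2.86), with 2254 in control DRG. Jun, the transcription factor, had 356 against 1433, with 686 in control DRG, and Hspb1, a small heat shock protein, 299 against 3151, with 1904 in control DRG. For Itga7, a laminin receptor subunit, the values were 322 in spinal cord, 4173 in day 5 DRG and 1166 in control DRG. Vip was the lone member higher in spinal cord, with 286 there and no detection in either DRG array, and Ecel1 and Cckbr, with 655 and 750 in spinal cord against 1015 and 1241 in day 5 DRG, were within 2-fold.

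**Figure D4:**
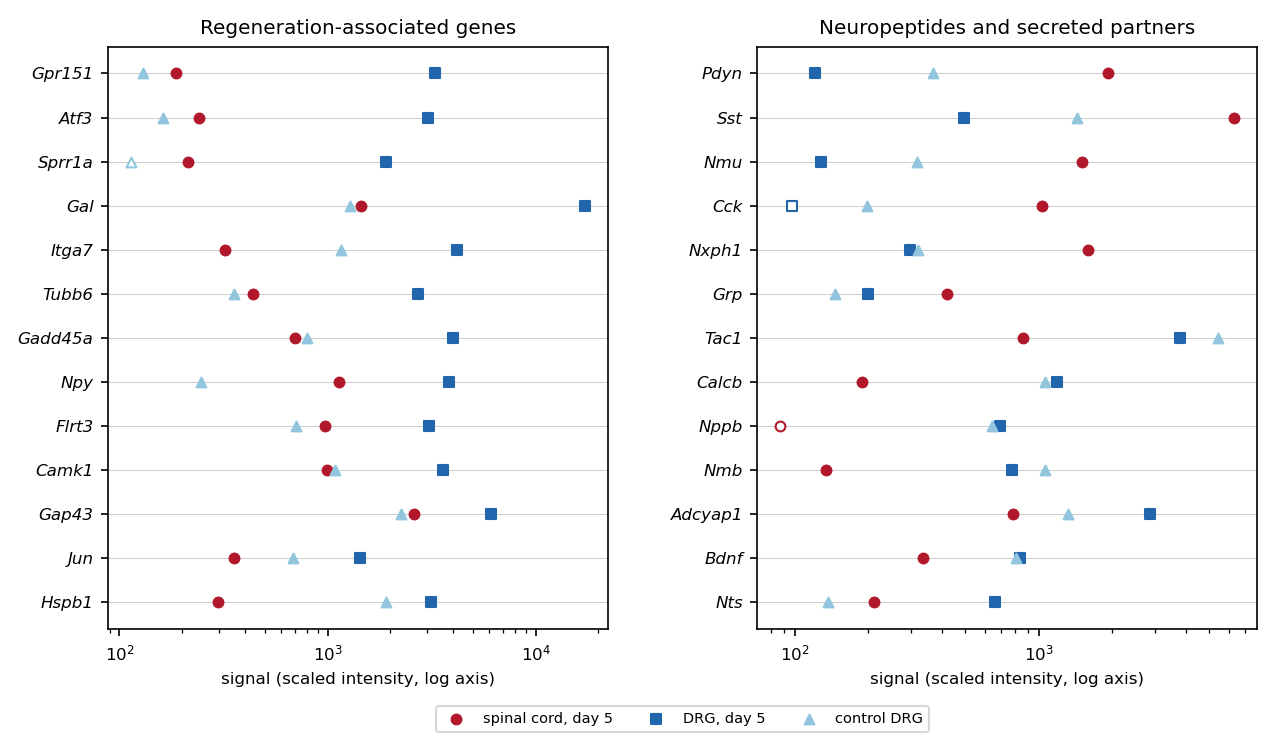
Scaled signal (log axis) of 13 regeneration-associated genes, at left, and 13 neuropeptides or secreted proteins, at right, in spinal cord at day 5 (red circles), DRG at day 5 (dark squares) and control DRG (light triangles), 1 array each, open where not detected. For Gpr151, Atf3, Sprr1a and Gal the spinal cord signal is near that of control DRG and day 5 DRG stands apart, while for Calcb and Nmb the 2 DRG arrays are close.

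Receptors of neurotrophins and the GDNF family were lower in spinal cord for 5 of 13 detected members, among them Ngfr, Gfra3 and Ret, and higher for 1. That member was Sort1, sortilin, a sorting receptor that also binds proneurotrophins, with 9010 in spinal cord against 3207 in DRG (2.81-fold, 2.45 to 3.22). Bdnf, itself a ligand, had 336 against 839, and Ntrk2, its receptor, had 1070 against 551 and was within 2-fold.

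Most cytoskeletal genes of the tubulin list, 14 of 25, and 6 of 13 intermediate filament genes lay within 2-fold. Of intermediate filament genes 2 of 13 detected members were higher, Gfap and Ina, the internexin of central neurons (769 in spinal cord against 245 in DRG), and 5 were lower, with Prph and Vim, vimentin (578 against 3624, 6.27-fold), in front. The neurofilament subunits Nefm and Nefh lay within 2-fold, at 8390 against 8236 and 5428 against 8997. Of 25 detected tubulin and microtubule-associated genes, 3 were higher and 8 lower. Map2, the dendritic microtubule protein, had 5002 in spinal cord against 1154 in DRG (4.33-fold, 3.49 to 5.39), and Tppp, made by oligodendrocytes, 1583 against 192. Tubb2b, a neuronal tubulin, had 10318 against 38670 (3.75-fold) and Tubb6 439 against 2720, with 355 for Tubb6 in control DRG.

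Microglia genes were higher in spinal cord for 4 of 19 detected members and lower for 0. P2ry13 and P2ry12, purine receptors of microglia, had 579 against 190 (3.04-fold) and 343 against 159 (2.15-fold), and the call of P2ry12 was lost without scaling. Complement genes shared by microglia and macrophages were within 2-fold, and C1qb had 1811 in spinal cord, 1863 in day 5 DRG and 686 in control DRG. Tissue macrophage genes were lower for 8 of 17 and higher for 0. Lgals3, galectin-3, had 365 in spinal cord against 4418 in DRG (12.1-fold, 10.47 to 14.01), Lyz2, lysozyme, 725 against 3292, and Mrc1, the mannose receptor, 209 against 782. Control DRG had 1582, 1581 and 403, between the other values.

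Antigen presentation genes were lower in spinal cord for 10 of 14 detected members, with a median log2 difference of -1.26. The class II genes led, with Cd74, the invariant chain, at 394 in spinal cord against 3465 in DRG (8.79-fold, 7.43 to 10.4), H2-Ab1 at 332 against 2842 and H2-Eb1 at 287 against 2356. B2m, the light chain of class I, had 3432 against 9486 (2.76-fold). Neutrophil genes were within 2-fold for 14 of 15, with S100a8 lower (2173 against 4545, a call lost with quantile normalization and with neqc), and Mmp9, the metalloproteinase the study is named for, had 318 in spinal cord against 204 in DRG (1.56-fold). Of mast cell and lymphocyte genes 6 were detected, and the mast cell protease Cpa3 was lower.

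Connective tissue and matrix genes were lower in spinal cord or within 2-fold, with 3 exceptions. Collagens were lower for 9 of 20 detected members and higher for 0, among them Col28a1, a collagen of peripheral nerve (126 against 681, 5.41-fold), and Col1a1 (316 against 991). Of fibroblast, perineurial and meningeal genes 7 of 21 were lower, with the small proteoglycans Lum (302 against 2100) and Dcn (3828 against 14632) in front. Ptgds, prostaglandin D synthase, made by meninges and oligodendrocytes, was higher, with 2372 in spinal cord against 999 in DRG. Other matrix genes were lower for 9 of 26, led by the fibulin Fbln2 (155 against 1449, 9.34-fold), and higher for 2, Sparcl1 (1357 against 290), a secreted protein of astrocytes, and Timp4.

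Inhibitors of metalloproteinases differed from each other. Timp4 had 1166 in spinal cord and was not detected in DRG (at least 9.80-fold). Timp1, the inhibitor of MMP-9 in the study's title, had 189 in spinal cord against 436 in day 5 DRG (2.30-fold lower, 2.004 to 2.64), and control DRG had 201. Timp2 and Timp3 were within 2-fold, at 8254 against 12974 and 2881 against 4137, and Mmp2, a gelatinase, had 305 against 1213.

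Vessel and other markers differed little. Endothelial genes were higher in spinal cord for 2 of 16 detected members, and Slco1c1, a thyroxine transporter of barrier endothelium and astrocytes, had 860 in spinal cord and no detection in DRG (at least 7.22-fold). Pericyte and ependymal genes were within 2-fold for 11 of 11 and 8 of 8. The ependymal genes were dim, with summed signals of 1614 in spinal cord and 1416 in DRG over 10 genes on the array. Of these, 3 were not detected in spinal cord and 5 in DRG, and folds this near background are drawn toward 1. Adipocyte and erythroid lists had 1 lower member each, Car3 and Alas2, and the call of Alas2 was lost with quantile normalization.

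Energy, ribosomal and reference genes were mostly within 2-fold. Of 42 detected subunits of oxidative phosphorylation, 41 were within 2-fold and Ndufb5 was higher (1530 against 715), a call lost without scaling. Of 45 cytosolic ribosomal protein genes, 43 were within 2-fold, and Rps2 (5995 against 13281) and Rpl10 (9043 against 18334) were lower, though both calls were lost with quantile normalization and with neqc. Reference genes were within 2-fold for 9 of 9, with Gapdh at 26640 in spinal cord against 27433 in DRG. Cholesterol synthesis was lower for 4 of 16 and higher for 0, with a median log2 difference of -0.64, and Fdps had 2654 in spinal cord against 7798 in DRG (2.94-fold). Eef1a1 and Nefl, abundant in neural tissue as a rule, were not detected in either array, so an undetected signal does not show that a transcript was missing.

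**Figure D5:**
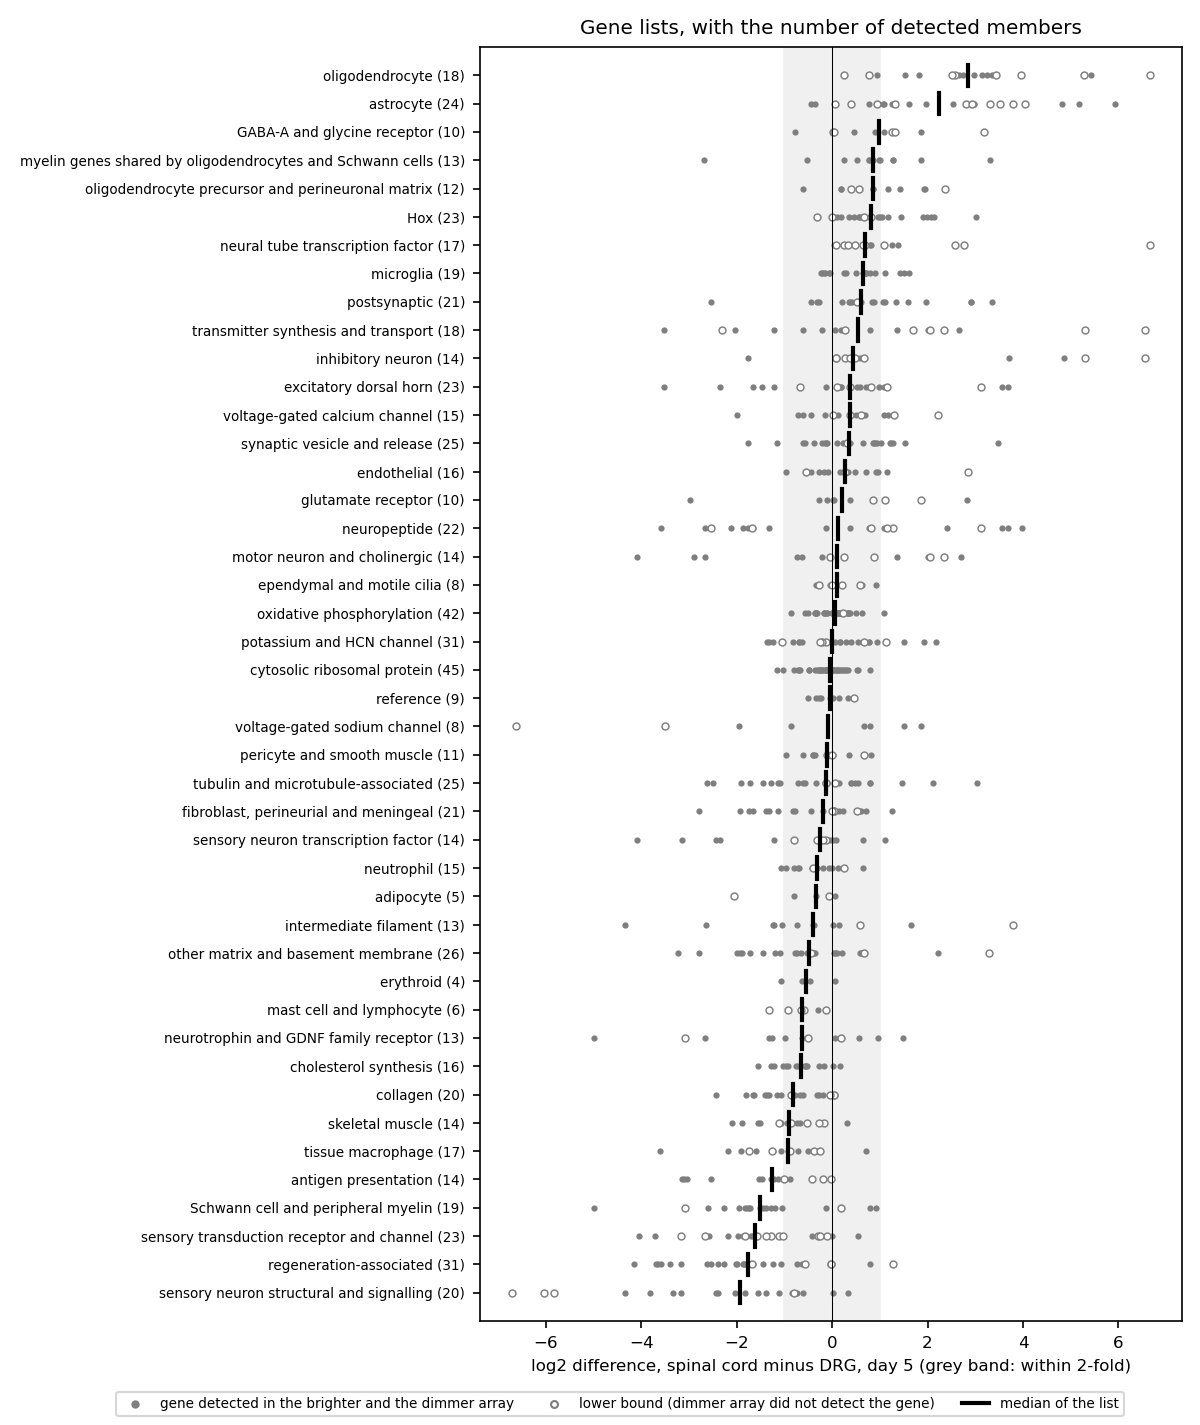
Log2 difference of spinal cord minus day 5 DRG for the detected members of 44 gene lists, 1 point a gene, open where the dimmer tissue had no detection, with the median of each list as a black bar and the number detected in brackets. Medians run from 2.85 for oligodendrocyte genes at the top to -1.93 for sensory neuron structural genes at the bottom, and the grey band marks differences within 2-fold.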

How the data were processed

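Total RNA from each tissue pool was amplified, hybridised to MouseRef-8 v2.0 bead arrays, stained with Cy3 and scanned. Submitters' processing notes name Agilent Feature Extraction 10.5. Per the file headers, the non-normalized table the authors deposited gives each probe an intensity (no background subtraction, no scaling), its bead standard error, a bead number and a detection p-value. The deposited table of processed intensity values is quantile normalized (all arrays share the same quantiles), while the study's methods describe normalization to the median. It served as an alternative.

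Each array was scaled to the geometric mean of the 6 medians over all probes, with no background subtraction, so dim genes have folds drawn toward 1. Each gene was represented by its brightest probe (mean scaled signal of the 6 arrays), 4777 genes had more than 1 probe, and in 0 genes did probes go opposite ways at 2-fold. GEO's platform annotation named 23978 probes with 1 symbol and 0 with several, and 1719 were unnamed here. Probe sequences were not used, so cross-hybridisation between close relatives, such as tubulins, globins, histocompatibility genes and Mrgpr receptors, was not assessed.

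Named genes were the 12 largest folds each way that both arrays detected, the 8 largest lower bounds each way, up to 6 called members per list and direction, exceptions of 5 or fewer, and members needed for a role. The genes of the comparison and the 44 gene lists were chosen with earlier results of these data known. Members were counted and no test between conditions was made. Alternatives were other scalings, neqc (limma 3.58.1 in R 4.3.3), the deposited processed table, detection p under 0.01, no filter, other probe rules, a 4-fold line, the lower end of the bead interval, and the control DRG array. The code that makes calls was tested on simulated data, which says nothing about error between animals. Promoters came from RefSeq (GRCm38.p6), matched by symbol.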

Additional observations from a re-analysis of the deposited data

How the results depend on the processing

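With 1 array a side no replicate could be left out, and bead intervals cover the spread between beads of 1 array only. No paired analysis was possible because each condition was 1 array and the labels give no replicate numbers. The counts were 1134 higher and 1167 lower with neqc, which subtracts background, and the counts at the 4-fold line were 175 higher and 177 lower. Under the other settings the counts stayed within 1.5 times, at 450 to 713 higher and 538 to 995 lower, the fewest by the lower end of the bead interval. Genes higher made up 44.8% of all calls, 34.2% without scaling (median log2 difference -0.17), and 50.0% with quantile normalization. Among the named genes, directions changed only with the control DRG array in place of that of day 5. There the log2 difference of spinal cord was 0.57 for Atf3, 0.16 for Gal, 0.52 for Gpr151, 2.20 for Npy, 0.62 for Nts and 0.31 for Tubb6. For Sprr1a, which control DRG did not detect, it was at least 0.88. Slc6a4 was detected in neither spinal cord nor control DRG, so its 0.029 comes from raised signals and has no direction. The regeneration-associated list, over members detected in spinal cord or control DRG, had a median of 0.24. With that list, 10 of 44 lists changed the sign of their median under some setting, and the others of these had medians from -0.34 to 0.13 as reported. Turned were, without scaling, ependymal (-0.04), motor neuron and cholinergic (-0.03), neuropeptide (-0.01), oxidative phosphorylation (-0.08) and potassium and HCN channel (-0.14), with quantile normalization cytosolic ribosomal (0.09) and reference genes (0.10), which neqc, the deposited processed table and the control array turned too, with the processed table sodium channels (0.00), and with no filter adipocyte (0.06), motor neuron and cholinergic (-0.13) and potassium and HCN channel (-0.02). The control array also turned potassium and HCN channel (-0.06). A further 28 of 222 named genes fell below 2-fold with that array, 12 without scaling, 33 by the lower end of the bead interval and 108 at the 4-fold line. Among them Rps2, Rpl10, S100a8 and Syt4 fell below 2-fold with quantile normalization and with neqc. Signals near background limit dim genes, for which a fold is a lower bound or is drawn toward 1.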

Other observations

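Several gene families were chosen after their values were seen, so the counts are descriptions. A few of their members, such as Anxa2, S100a8 and Cldn10, also stand in the gene lists. Calcium-binding S100 genes were lower in spinal cord for 5 of 10 detected members and higher for 1. S100a11 had 1375 in spinal cord against 17531 in day 5 DRG (12.8-fold, 11.3 to 14.4), with 5496 in control DRG, and S100a6 had 624 against 3930. S100a1 was the member that was higher, with 3253 in spinal cord against 1191 in DRG (2.73-fold). Annexins, which bind membranes in the presence of calcium, were lower for 4 of 8 and higher for 0, and Anxa2, the partner of S100a10, had 3294 in spinal cord against 33036 in DRG, with 606 against 5432 for S100a10. Protease inhibitors of the serpin family were lower for 5 of 14 detected members and higher for 0. Serpinb6a had 1583 in spinal cord against 11531 in DRG (7.28-fold), and Serpinb1a had 320 against 2554, with 974 in control DRG.

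Claudins, the sealing proteins of tight junctions, split by tissue, with Cldn10 and Cldn11 higher in spinal cord and Cldn19 and Cldn1 lower, out of 10 detected. Single genes known to be induced by interferons were picked because they were lower in spinal cord, and no list of such genes was counted. Gbp2, a guanylate-binding protein, had 442 in spinal cord against 3488 in day 5 DRG (7.89-fold), with 1087 in control DRG. Oasl2 had 286 against 1959 and Igtp 277 against 1611, with 1268 and 782 in control DRG. Cd44, a hyaluronan receptor, had 219 in spinal cord against 1049 in day 5 DRG and 741 in control DRG. No test bears on any of these values.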
